A study of Homo sapiens with 20 samples.

Results

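The mitochondrial ribosomal protein genes encode the protein subunits of the mitoribosome. They were taken from the deposited expression table by symbol, as every MRPL or MRPS symbol that ends in a number with at most 1 further letter. This gave 76 of the 21201 gene symbols, and all 76 passed the filter on low values in each of the 5 cell lines. GENCODE places them on 21 chromosomes of GRCh37, with at most 8 on a single chromosome.

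The mitoribosome translates the few mRNAs of mitochondrial DNA, which code for core subunits of the respiratory chain and the ATP synthase. Its rRNAs come from mitochondrial DNA, whereas its proteins are encoded in the nucleus, translated in the cytosol and imported. The large subunit joins amino acids at the peptidyl transferase center and sends the new chain through an exit tunnel at the inner membrane, and the small subunit reads the codons. Some of its proteins have counterparts in bacterial ribosomes and others are particular to mitochondria.

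RNA sequencing was performed on 5 human tumor cell lines after 24 h of exposure to 1 µM G007-LK, a small molecule that inhibits the tankyrases TNKS1/2, or to 0.01% DMSO as the control. The lines sensitive to tankyrase inhibition came from kidney (UO-31), lung (ABC-1), colon (COLO 320DM) and ovary (OVCAR-4), while RKO, also from colon, served as the insensitive one. Each line gave 2 G007-LK and 2 DMSO libraries, described as biological replicates, which makes 20 libraries. ABC-1 and RKO cells were kept in EMEM and the other lines in RPMI-1640. Between lines in different media, a difference in level or in effect cannot be told apart from one of medium. This holds for the comparison of every sensitive line but ABC-1 with RKO. Expression is given as RPKM, the reads of a gene divided by its length and by the mapped reads of the library.

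The table used here holds RPKM only, so the read depth of the libraries was not known from it. From the spacing of low values, other libraries had 0.855 to 1.11 times the reads of DMSO replicate 1 of their line, a ratio that 12.02% to 16.6% of the low genes held in each. Summed RPKM lay between 367196 and 909187, with the highest sums in OVCAR-4. The G007-LK replicates of UO-31 stood apart by a median of -0.28 log2 units over all genes (replicate 2 minus replicate 1), and those of COLO 320DM with DMSO by 0.17. The other groups differed by at most 0.114 in size. Lineage markers, given as medians over the libraries of a line, fitted the labels in part. PAX8, a kidney and Müllerian lineage factor, had 67.8 RPKM in UO-31, where the kidney markers PAX2, CDH16 and LHX1 had 6.71, 2.64 and 0.862 RPKM. OVCAR-4 had 84.6 RPKM of PAX8 and 10.4 RPKM of MUC16, but WT1 stayed at or under 0.138 RPKM. Its MSLN had 5.08 RPKM, against 153.6 RPKM in ABC-1. Of the kidney markers, PAX2 had 0.01 RPKM in OVCAR-4. CDH16 and LHX1 had 3.41 and 0.939 RPKM there, no lower than in UO-31, so they did not separate these lines. CDX2, an intestinal factor, had 627 RPKM in COLO 320DM, with KRT20 at 4.59, CDH17 at 4.49, VIL1 at 0.057 and CDX1 at 0 RPKM. RKO had 7.11 RPKM of CDX2 and at most 0.052 RPKM of the other 4 in any library. NKX2-1, a lung factor, had 2.97 RPKM in ABC-1, where the lung secretory genes NAPSA, SFTPB and SFTPC stayed at or under 0.276 RPKM. Of the blood markers, HBB was listed at 0 in every library, whereas PTPRC had 2.68 to 4.05 RPKM and HBA1 up to 0.533 RPKM in COLO 320DM, and PTPRC at most 0.117 RPKM in any other line. In bulk RNA, fewer cells of a kind and less RNA per cell cannot be told apart.

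Mitochondrial ribosomal protein genes were lower with G007-LK in the sensitive lines and nearly unmoved in RKO. As a share of all RPKM of the library, they took 0.984% and 0.995% in the G007-LK libraries of COLO 320DM, against 1.15% and 1.11% in its DMSO libraries. In UO-31 the shares were 0.655% and 0.688% with G007-LK, against 0.781% and 0.775% with DMSO. OVCAR-4 had 0.850% and 0.855% with G007-LK, against 0.920% and 0.915% with DMSO. The shares of G007-LK and DMSO libraries did not overlap in any of these 3 lines. ABC-1 had 0.729% and 0.747% with G007-LK, against 0.928% and 0.917% with DMSO, which is the widest gap of the 5 lines. In RKO the shares were 0.886% and 0.891% with G007-LK, against 0.898% and 0.896% with DMSO, again without overlap but much closer together.

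Genes were tested in each line with limma on log2(RPKM + 0.5), and called at an adjusted p under 0.05. In COLO 320DM, 31 of the 76 genes were called lower and 0 higher, where 11.6% of all genes tested were called lower and 7.7% higher. The median log2 fold change of the 76 genes was -0.26, against -0.01 over all genes tested. The 31 called genes were 16.8% to 35% lower by the fitted log2 fold change. For counts with 1 library left out, here and below, the share of all genes called was not computed. Leaving out the first or the second G007-LK library of COLO 320DM gave 9 or 6 genes called lower. When the libraries were first rescaled to a common median ratio, which removes the offset between replicates, 44 genes were called lower and 0 higher (backgrounds 21.8% and 17.1%), and 31 to 55 lower when 1 library was left out together with rescaling.

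In UO-31 only 5 of the 76 genes were called lower (6.58%) and 0 higher, where 8.63% of all genes tested were called lower and 4.79% higher, so the share called was not above the background. The median log2 fold change was nonetheless -0.28, against -0.04 over all genes, and 73 of 76 values were below 0. Both G007-LK libraries lay below both DMSO libraries for 64 of 76 genes (30.3% of all genes tested). The count called in UO-31 depended on single libraries, with no share of all genes computed when a library was left out. It was 0 without either DMSO library, 64 with the first and 49 with the second G007-LK library left out, while 32 genes were called lower and 0 higher after rescaling (backgrounds 18.1% and 12.6%). With rescaling, leaving out the first or second DMSO library gave 5 or 4, and leaving out the first or second G007-LK library gave 43 or 68.

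OVCAR-4 had 50 genes called lower and 2 higher, where 39% of all genes tested were called lower and 12.6% higher. The effects were small, with a median log2 fold change of -0.15 against -0.11 over all genes, and called genes were 7.6% to 21.5% lower. Since the median of all genes in OVCAR-4 was itself shifted by over 0.1, the rescaled values matter here. After rescaling, 26 genes were called lower (background 24.4%) and 7 higher (background 23%), and the median was -0.05. The share called lower was thus 34.2% after rescaling, against 65.8% before it. Without DMSO replicate 2, 32 were called lower.

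ABC-1 showed the largest fall of the 5 lines. There 63 genes were called lower and 0 higher, where 41.2% of all genes tested were called lower and 16.6% higher. The median log2 fold change was -0.47, against -0.14 over all genes, and called genes were 14% to 45.8% lower. After rescaling, which takes out the shift of all genes, 58 were called lower (background 34.7%) and 1 higher (background 28.6%), with a median of -0.35. Leaving out 1 library gave 53 to 64 genes called lower. A NOISeq score over 0.8 computed from the RPKM called fewer, with 17 genes lower in ABC-1. It called 0 lower in each of COLO 320DM, UO-31, OVCAR-4 and RKO, and the share of all genes passing it was not computed. For ABC-1 and UO-31 the fit on the deposited values used a spread set almost entirely by the trend over all genes (an infinite prior), and rescaled values stand beside most genes of these lines named below.

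In RKO, 1 of the 76 genes was called lower and 0 higher, where 2.75% of all genes tested were called lower and 1.36% higher. At an unadjusted limma p under 0.05, RKO had 17 genes lower and 1 higher, where 15.6% of all genes tested were lower and 5.97% higher. By the same measure ABC-1 had 64 lower and 1 higher (43.5% of all genes lower and 18.1% higher), OVCAR-4 53 and 3 (42.8% and 14.4%), COLO 320DM 45 and 0 (18.6% and 14%), and UO-31 33 and 0 (14.7% and 9.35%). The median log2 fold change in RKO was -0.04, against -0.02 over all genes. Both G007-LK libraries lay below both DMSO libraries for 33 of 76 genes, against 35.2% of all genes tested. The replicates of RKO were the closest of the study, with median offsets of 0.005 log2 units with DMSO and 0.003 with G007-LK. The gene called was MRPL47, a large subunit protein with a bacterial counterpart. It had 33.6 and 33.6 RPKM with G007-LK, against 36.8 and 38.6 RPKM with DMSO, a log2 fold change of -0.16 ± 0.03 (SE; limma adjusted p = 0.0247). The call was lost when any of RKO's DMSO replicate 2, G007-LK replicate 1 or G007-LK replicate 2 was left out, and after rescaling (-0.14, limma adjusted p = 0.0501), when no gene was called in either direction (backgrounds 1.07% and 1.56%).

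**Figure D1:**
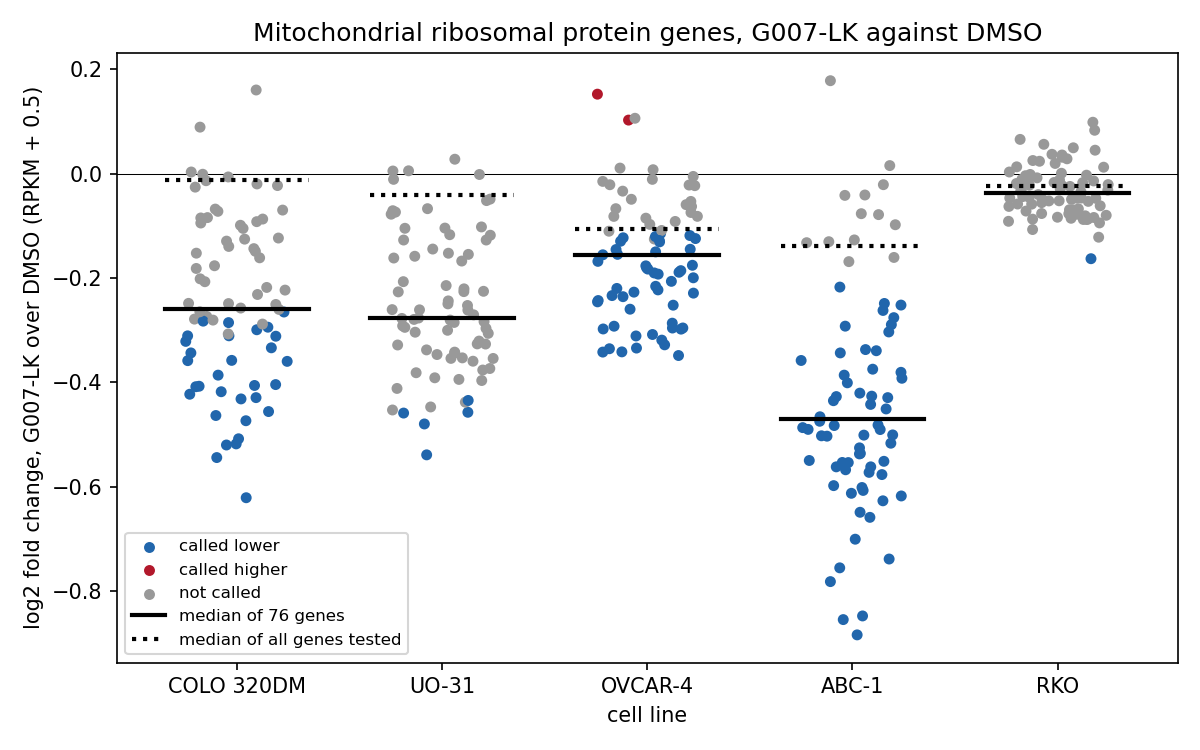
Log2 fold change of each of the 76 genes (points), G007-LK over DMSO, on the y axis, by cell line on the x axis, from 2 libraries per group. Blue points were called lower, red points higher and grey points were not called. The solid lines mark the median of the 76 genes (-0.26, -0.28, -0.15, -0.47 and -0.04) and the dotted lines the median of all genes tested (-0.01, -0.04, -0.11, -0.14 and -0.02).

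The difference from the insensitive line was tested directly, as the interaction of treatment and line with RKO. These 4 comparisons share the RKO libraries. In ABC-1, the effect on 60 genes was lower than in RKO and on 1 higher, where 34% of all genes tested were called lower and 12.8% higher. In COLO 320DM the difference was called lower for 21 genes and higher for 0 (7.05% of all genes lower and 4.57% higher). Leaving out any RKO library gave 5 or 6, G007-LK replicate 1 or 2 of COLO 320DM 15 or 12, and its DMSO replicate 1 or 2 gave 40 or 32. After rescaling it was 34 lower (background 17.1%). In OVCAR-4, 31 genes were called lower and 0 higher (27.6% of all genes lower and 7.8% higher), and after rescaling 11 lower and 6 higher (backgrounds 14.1% and 13.8%). In UO-31, 2 genes were called, MRPL12 and MRPL33, both lower (4.02% of all genes lower and 2.14% higher). The UO-31 count was 0 without any 1 of its DMSO libraries or of the RKO libraries, 56 or 36 without G007-LK replicate 1 or 2, and 19 after rescaling (background 13.7%). The median difference of the 76 genes was -0.43 for ABC-1 (-0.12 over all genes), -0.22 for COLO 320DM (0.0031 over all genes), -0.14 for OVCAR-4 (-0.09 over all genes) and -0.24 for UO-31 (-0.03 over all genes). After rescaling these medians were -0.29, -0.24, -0.04 and -0.22, again for ABC-1, COLO 320DM, OVCAR-4 and UO-31, so that of OVCAR-4 lay close to 0.

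Fitted together over the 16 libraries of the sensitive lines with line as a covariate, 65 of the 76 genes were called lower and 0 higher, where 33.8% of all genes tested were called lower and 10.2% higher. The median was -0.29, against -0.09 over all genes. This fit assumes 1 effect common to the 4 lines and takes libraries, not lines, as replicates. Its SE and p-values therefore do not rest on lines as the unit. After rescaling, 52 were called lower (background 27.8%) with a median of -0.20. The 11 genes not called were MRPL10, MRPL23, MRPL28, MRPL43, MRPL45, MRPL53, MRPS14, MRPS18A, MRPS21, MRPS33 and MRPS36. By line, 9 genes were called lower in 0 sensitive lines, 14 in 1, 28 in 2, 21 in 3 and 4 in all 4. The same distribution over all genes was not computed, so these counts have no background. The last count is limited by UO-31, where only 5 genes were called lower, a share not above its background.

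The 4 genes called lower in every sensitive line were MRPL12, MRPL33, MRPL3 and MRPL49. MRPL12 forms the flexible stalk of the large subunit that receives the translation factors. It had 139 and 140 RPKM with G007-LK in COLO 320DM, against 185 and 187 RPKM with DMSO. In UO-31 it had 69.8 and 67.2 RPKM with G007-LK, against 100.1 and 99.3 RPKM with DMSO. OVCAR-4 had 376 and 392 RPKM with G007-LK, against 467 and 477 RPKM with DMSO. In each of these lines all G007-LK values lay below all DMSO values. In ABC-1 it had 72.6 and 80.5 RPKM with G007-LK, against 136 and 140 RPKM with DMSO. RKO had 81.8 and 86.3 RPKM with G007-LK, against 90.03 and 89.4 RPKM with DMSO. The groups of RKO did not overlap either, but the gap there was small. The log2 fold changes of MRPL12 were -0.42 ± 0.07 (SE) for COLO 320DM, -0.54 ± 0.13 for UO-31, -0.30 ± 0.03 for OVCAR-4 and -0.85 ± 0.07 for ABC-1 (rescaled -0.72, limma adjusted p = 1.2e-06), against -0.09 ± 0.03 in RKO, where it was not called (limma adjusted p = 0.0937). Its effect differed from that in RKO in all 4 lines, with limma adjusted p-values of 0.0116, 0.0202, 0.00741 and 2.7e-06 in the same order. In OVCAR-4 that difference was -0.20, and after rescaling -0.11 (limma adjusted p = 0.0712). Rescaled, it was -0.62 for ABC-1, -0.34 for COLO 320DM and -0.43 for UO-31 (limma adjusted p = 0.0003, 0.0171 and 0.0253).

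MRPL33, a small protein of the large subunit with a bacterial counterpart, had 156 and 150 RPKM in ABC-1 with G007-LK, against 243 and 275 RPKM with DMSO. In UO-31 it had 89.7 and 79.8 RPKM with G007-LK, against 126 and 110 RPKM with DMSO. In RKO it had 34.7 and 35.2 RPKM with G007-LK, against 33.5 and 34.6 RPKM with DMSO. MRPL33 was thus lower in both sensitive lines named and slightly above DMSO in RKO, where it was not called. Its log2 fold change was -0.76 ± 0.06 in ABC-1 (rescaled -0.63, limma adjusted p = 2.3e-07), -0.48 ± 0.13 for UO-31, -0.40 ± 0.09 for COLO 320DM and -0.33 ± 0.03 for OVCAR-4, and it differed from RKO in all 4 lines on the deposited and on the rescaled values.

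MRPL3 lies close to the peptidyl transferase center. It had 114 and 108 RPKM with G007-LK in ABC-1, against 156 and 170 RPKM with DMSO, and 205 and 208 RPKM with G007-LK in OVCAR-4, against 265 and 259 RPKM with DMSO. MRPL49, a large subunit protein particular to mitochondria, had 55.2 and 48.2 RPKM with G007-LK in UO-31, against 70.5 and 69.2 RPKM with DMSO. Neither gene overlapped between treatments in those lines. In RKO, MRPL49 had 30.4 and 30.1 RPKM with G007-LK, against 30.1 and 31.2 RPKM with DMSO, which overlap. Over the sensitive lines together the log2 fold change was -0.42 ± 0.05 for MRPL3 and -0.34 ± 0.04 for MRPL49 (limma adjusted p = 2.0e-05 and 3.3e-05). On the deposited values neither effect differed from that in RKO at the threshold in UO-31. Nor did that of MRPL3 in COLO 320DM (difference -0.245, limma adjusted p = 0.18, and rescaled -0.26, limma adjusted p = 0.0109).

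**Figure D2:**
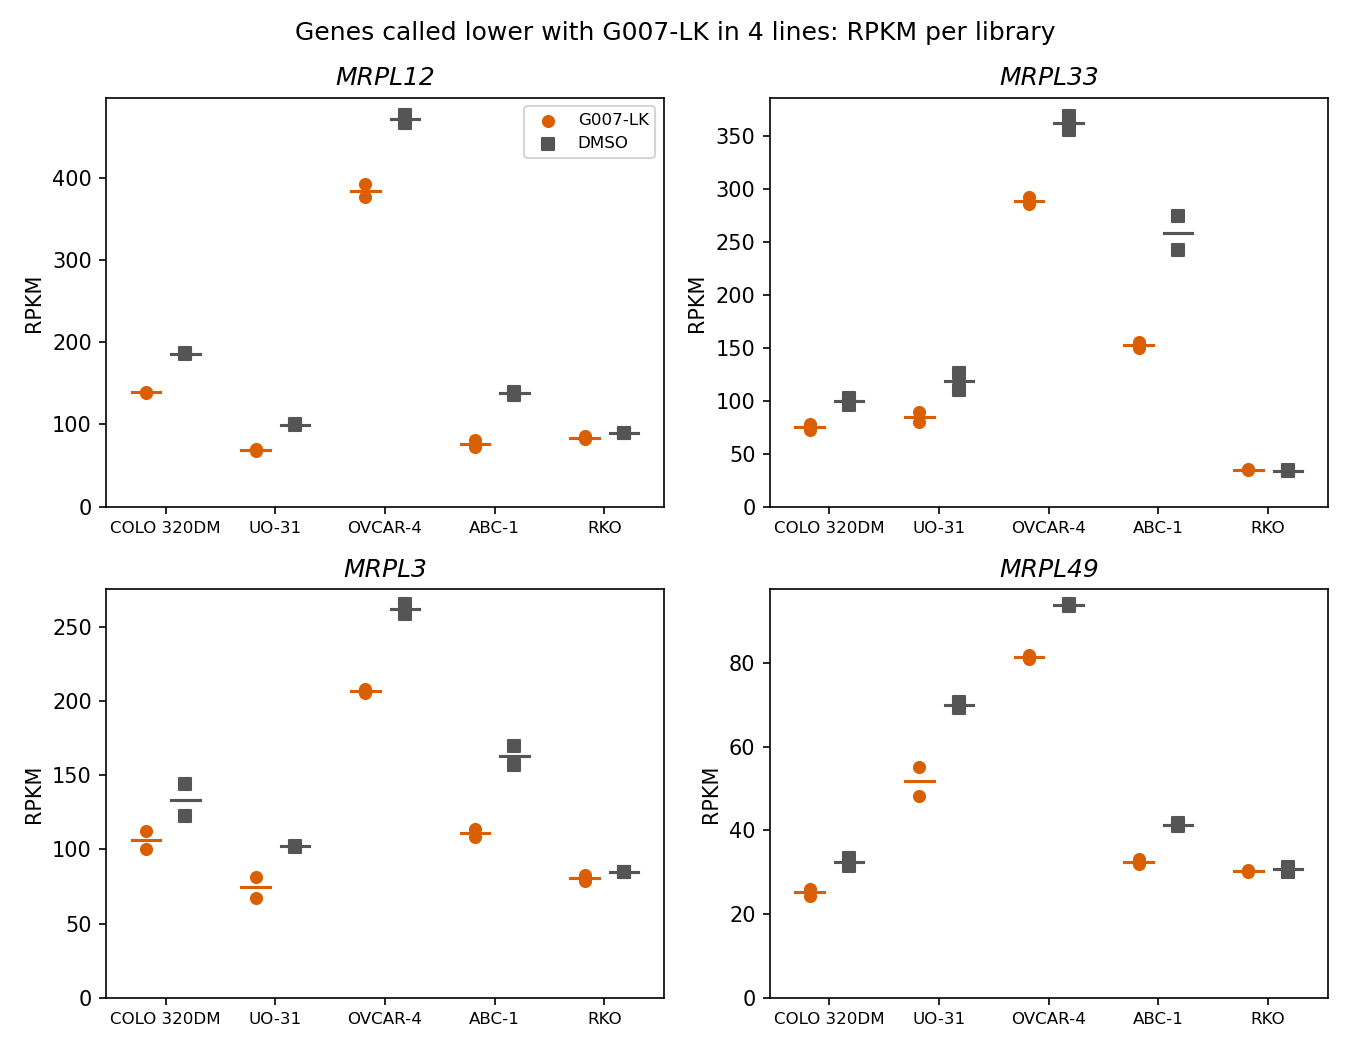
RPKM per library (y axis, from 0) of MRPL12, MRPL33, MRPL3 and MRPL49 in each cell line (x axis), with G007-LK as orange circles and DMSO as grey squares, and short lines at the mean of 2 libraries. G007-LK points lie below DMSO points in COLO 320DM, UO-31, OVCAR-4 and ABC-1 for each gene, with MRPL33 in RKO at 34.7 and 35.2 RPKM with G007-LK, against 33.5 and 34.6 RPKM with DMSO.

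Promoters were read for the 67 genes found in a RefSeq table of GRCh38, as the 250 bases before and the 50 bases from each gene's start, and 4 are shown because they span the responses, with MRPL12 and MRPL33 lower in every sensitive line, MRPS12 among the largest falls in COLO 320DM and MRPL53 called higher in OVCAR-4. Capitals mark matches to the core motif of ETS factors such as GABP (CCGGAAG) or of YY1 (AAGATGGC), on either strand. The NRF1 core GCATGCGC and the E-box CACGTG were searched in the same way. None of these motifs contains another. The coordinates are those of the single exact match of each sequence in GRCh37.
MRPS12, chr19:39421334-39421633, plus strand: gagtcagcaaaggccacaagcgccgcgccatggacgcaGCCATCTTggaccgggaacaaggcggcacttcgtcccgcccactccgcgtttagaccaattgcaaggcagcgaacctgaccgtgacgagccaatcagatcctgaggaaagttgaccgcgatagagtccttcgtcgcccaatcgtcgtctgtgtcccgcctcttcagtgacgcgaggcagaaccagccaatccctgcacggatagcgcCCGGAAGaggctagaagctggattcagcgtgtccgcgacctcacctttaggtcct
MRPL33, chr2:27994336-27994635, plus strand: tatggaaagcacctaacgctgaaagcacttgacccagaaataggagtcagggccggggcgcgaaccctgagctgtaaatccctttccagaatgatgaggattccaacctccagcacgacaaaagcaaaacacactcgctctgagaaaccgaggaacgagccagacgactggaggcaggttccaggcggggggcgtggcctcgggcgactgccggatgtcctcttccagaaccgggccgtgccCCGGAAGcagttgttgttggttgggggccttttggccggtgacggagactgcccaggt
MRPL12, chr17:79670147-79670446, plus strand: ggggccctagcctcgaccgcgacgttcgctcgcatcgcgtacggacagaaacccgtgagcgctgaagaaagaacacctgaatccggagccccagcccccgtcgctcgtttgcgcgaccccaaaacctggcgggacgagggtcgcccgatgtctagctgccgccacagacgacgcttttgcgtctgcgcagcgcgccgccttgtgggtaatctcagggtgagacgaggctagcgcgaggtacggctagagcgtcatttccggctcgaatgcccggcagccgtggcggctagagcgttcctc
MRPL53, chr2:74699758-74700057, minus strand: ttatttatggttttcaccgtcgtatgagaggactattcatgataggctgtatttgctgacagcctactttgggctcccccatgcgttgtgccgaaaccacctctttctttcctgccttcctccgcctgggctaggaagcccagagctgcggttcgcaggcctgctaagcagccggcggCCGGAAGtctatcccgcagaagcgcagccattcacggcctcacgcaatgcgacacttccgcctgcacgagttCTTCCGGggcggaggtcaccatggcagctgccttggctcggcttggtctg

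The ETS core stood in the promoters of 28 of 67 genes (41.8%), against 18.2% of 10103 promoters of other genes expressed in at least 1 line and 10.7% of all 27305 promoters. The YY1 core stood in 20 of 67 (29.9%), against 5.1% of the other expressed genes and 3.0% of all. The NRF1 core was found in 6 genes (9.0%), against 5.2% of the other expressed genes and 3.3% of all, and the E-box in 6 (9.0%), against 10.1% and 7.4%. In MRPS12 the YY1 match begins 212 bases before the start and the ETS match 5 bases before it. In MRPL33 the ETS match begins 8 bases before the start, and MRPL53 has matches at 72 bases before the start and at the start itself. The window of MRPL12, the gene with the second largest fall over the sensitive lines, holds none of the 4 motifs. The log2 fold change over the sensitive lines had a median of -0.26 in genes with the ETS core and -0.29 in those without it, and -0.28 with the YY1 core and -0.29 without it. For each of the 4 motifs the values of genes with and without it overlapped.

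In COLO 320DM the largest falls were in MRPS17, MRPL4, MRPL13 and MRPS12. MRPS17 is a small subunit protein that binds the rRNA, and it had 27.6 and 23.01 RPKM with G007-LK, against 40.1 and 38 RPKM with DMSO. MRPL4, a large subunit protein with a bacterial counterpart, had 47.8 and 48.2 RPKM with G007-LK, against 69.5 and 71 RPKM with DMSO. Neither gene overlapped between the groups. The log2 fold changes were -0.62 ± 0.11 for MRPS17 and -0.54 ± 0.09 for MRPL4 (SE; limma adjusted p = 0.00068 and 0.00032). MRPS12, a protein of the decoding site, had 33.6 and 36.9 RPKM with G007-LK, against 51.02 and 50.2 RPKM with DMSO. MRPL13, an rRNA-binding protein of the large subunit, had 29.5 and 28.8 RPKM with G007-LK, against 39.8 and 44.2 RPKM with DMSO. Their log2 fold changes were both -0.52, and each of the 4 genes had an effect lower than that in RKO, with differences of -0.50, -0.52, -0.43 and -0.52 for MRPS17, MRPL4, MRPL13 and MRPS12. In RKO, MRPS12 had 54.4 and 54.7 RPKM with G007-LK, against 54.8 and 54.5 RPKM with DMSO, so its values there overlapped.

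UO-31 had its largest called falls in MRPL12, MRPL33, MRPS10 and MRPL3. MRPS10, a protein of the head of the small subunit, had 38.95 and 31.2 RPKM with G007-LK, against 47.3 and 48.9 RPKM with DMSO. The groups did not overlap, and replicate 2 was the lower of the G007-LK libraries, as it was over all genes of the line. Its log2 fold change was -0.46 ± 0.15 (limma adjusted p = 0.0259), and the difference from RKO was -0.37 (limma adjusted p = 0.191). None of these calls held on the deposited values without either DMSO library, nor by the NOISeq rule. In the rescaled fit, which takes out the replicate offset, all 4 genes were called lower. There the log2 fold changes were -0.53 for MRPL12, -0.47 for MRPL33, -0.45 for MRPS10 and -0.45 for MRPL3 (limma adjusted p = 0.00694, 0.00848, 0.00378 and 0.00425).

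In OVCAR-4 the largest falls were in MRPL42, MRPL35, MRPL3 and MRPS30. MRPL42, a protein particular to mitochondria, had 29.2 and 29.8 RPKM with G007-LK, against 37.6 and 37.7 RPKM with DMSO. MRPL35, which has a bacterial counterpart, had 35 and 34.6 RPKM with G007-LK, against 43.7 and 44.9 RPKM with DMSO. MRPS30, which despite its symbol sits in the large subunit, had 24.1 and 23.96 RPKM with G007-LK, against 30.4 and 30.6 RPKM with DMSO. Each gene had closely matched replicates and no overlap. The log2 fold changes lay between -0.34 and -0.35, and between -0.23 and -0.25 after rescaling, where each was still called lower (limma adjusted p = 0.00108, 0.00109 and 0.00218 for MRPL42, MRPL35 and MRPS30).

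On the deposited values, genes were called higher in OVCAR-4 only, MRPL53 and MRPL23. Neither of these calls remained without DMSO replicate 1, DMSO replicate 2 or G007-LK replicate 2. After rescaling, 7 genes were called higher in OVCAR-4 (background 23%), and MRPL10 in ABC-1 (background 28.6%). MRPL53, particular to mitochondria and near the stalk, had 120 and 133 RPKM with G007-LK, against 112 and 115 RPKM with DMSO. MRPL23, a protein at the exit of the tunnel, had 130 and 131 RPKM with G007-LK, against 120 and 123 RPKM with DMSO. Both genes were above DMSO in both libraries, by small amounts. The log2 fold changes were 0.15 ± 0.05 and 0.10 ± 0.04 (SE; limma adjusted p = 0.019 and 0.0359), and 0.26 and 0.21 after rescaling. On the deposited values neither effect differed from that in RKO at the threshold (differences of 0.21 and 0.10, limma adjusted p = 0.0613 and 0.12), and on the rescaled values both did (0.30 and 0.20, limma adjusted p = 0.0138 and 0.0115). In COLO 320DM, MRPL23 had 171 and 170 RPKM with G007-LK, against 202 and 190 RPKM with DMSO, the opposite order, without a call (limma adjusted p = 0.061).

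In ABC-1 the largest falls were in MRPL4, MRPL50, MRPL12 and MRPL39. MRPL4 had 21.02 and 22.9 RPKM with G007-LK, against 42.5 and 39.4 RPKM with DMSO. MRPL50, particular to mitochondria, had 15.7 and 15.2 RPKM with G007-LK, against 26.9 and 29.8 RPKM with DMSO. MRPL39, also particular to mitochondria, had 16.1 and 17.04 RPKM with G007-LK, against 27.9 and 29.8 RPKM with DMSO. These are falls of 45.8%, 44.7% and 41.8% by the fitted log2 fold change, with no overlap between the groups. After rescaling the log2 fold changes were -0.76, -0.73 and -0.66 (limma adjusted p = 1.1e-05, 8.1e-08 and 6.6e-07), against -0.88, -0.85 and -0.78 on the deposited values. On the deposited values MRPL50 was not called in the other sensitive lines, with log2 fold changes of -0.29 (COLO 320DM), -0.33 (UO-31) and -0.09 (OVCAR-4), and after rescaling it was called lower in COLO 320DM and UO-31. MRPL4 in RKO had 56.8 and 60.5 RPKM with G007-LK, against 59.1 and 59.9 RPKM with DMSO, which overlap.

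**Figure D3:**
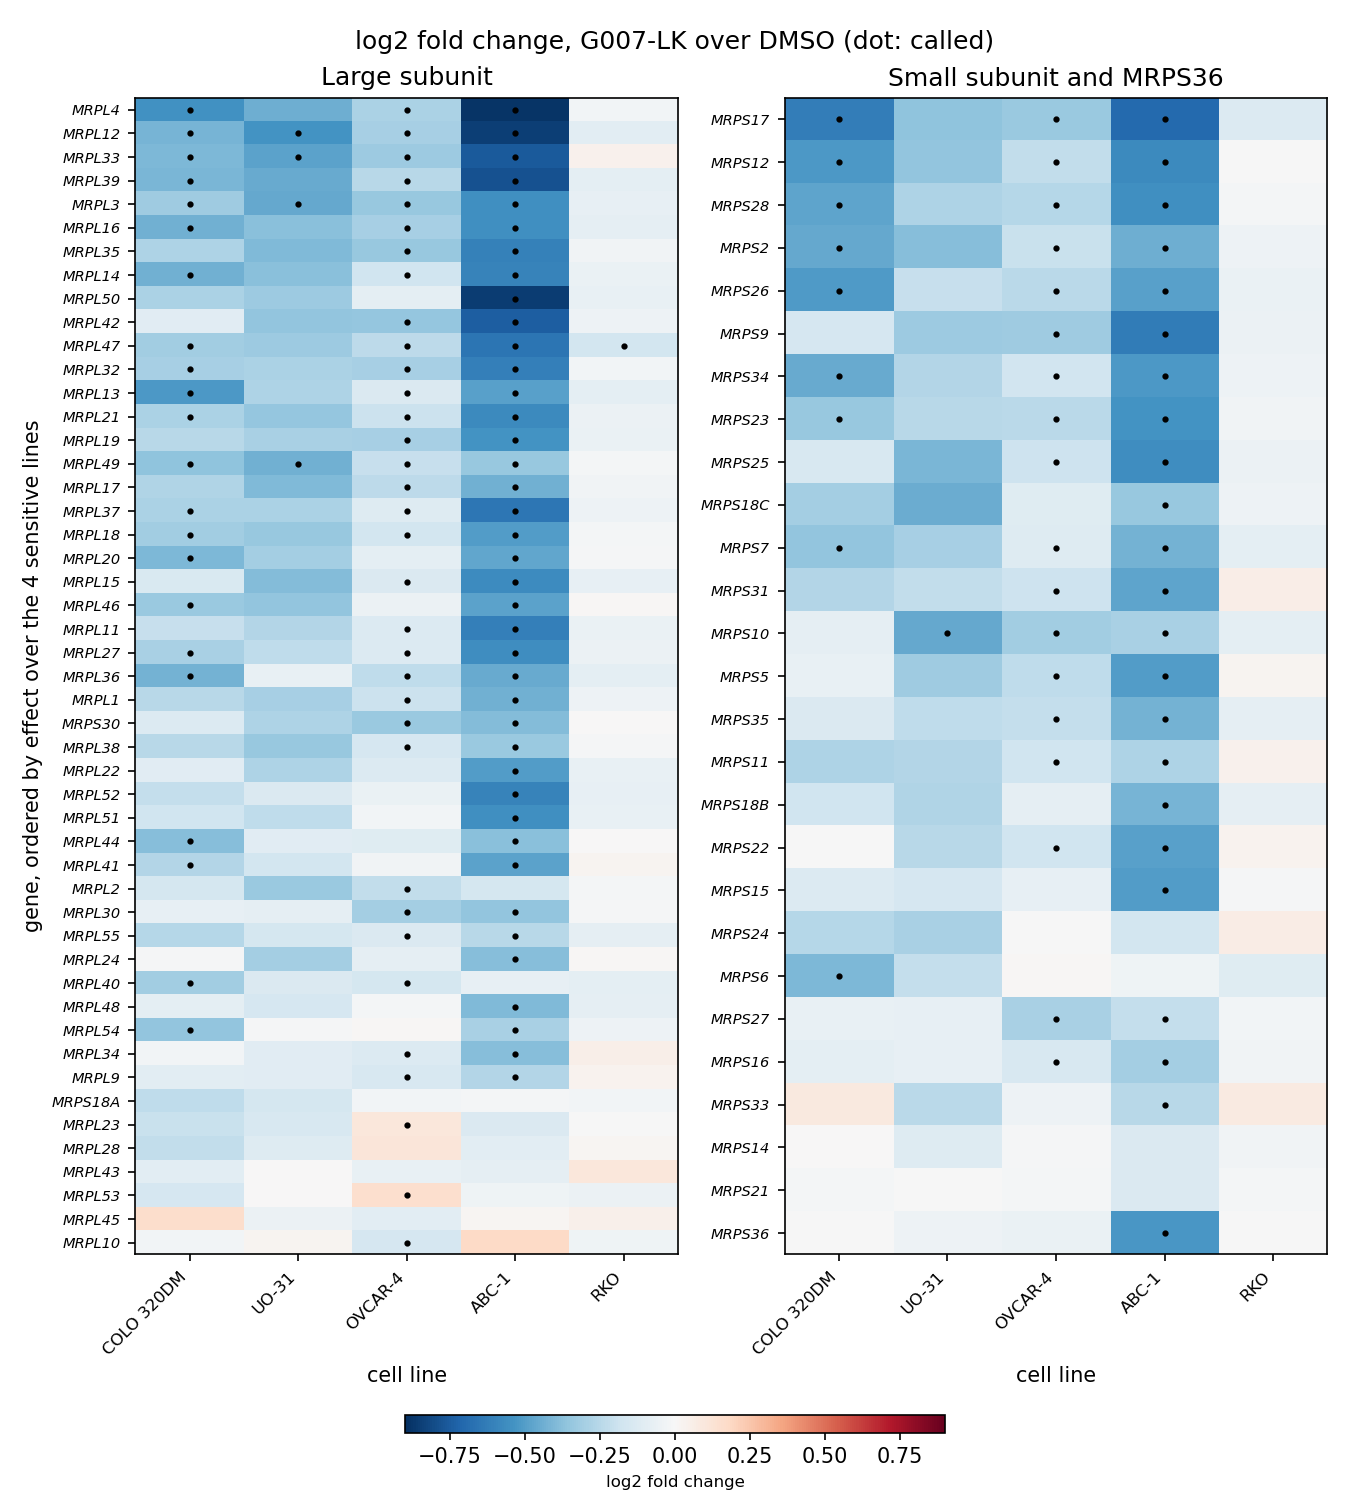
Log2 fold change of the 76 genes, G007-LK over DMSO (color, blue lower and red higher), in the 5 cell lines (columns), with the large subunit on the left and the small subunit and MRPS36 on the right, ordered by the effect over the 4 sensitive lines. Dots mark called genes, 63 for ABC-1, 52 for OVCAR-4, 31 for COLO 320DM, 5 for UO-31 and 1 for RKO, and MRPL53 and MRPL23 in OVCAR-4 are the only dots on red.

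Genes of both subunits were called lower over the sensitive lines together, 42 of 49 of the large subunit with a median log2 fold change of -0.29 and 23 of 26 of the small subunit with a median of -0.28, where 33.8% of all genes tested were called lower. After rescaling the counts were 33 and 19 (background 27.8%). In ABC-1, 40 of 49 and 22 of 26 were called lower (background 41.2%), and 37 and 20 after rescaling (background 34.7%). OVCAR-4 had 32 and 18 called lower (background 39%), and 16 and 10 after rescaling (background 24.4%). COLO 320DM had 22 and 9 (background 11.6%), and 30 and 14 after rescaling (background 21.8%). In UO-31 the counts were 4 and 1, or 8.16% and 3.85%, which is not above the background of 8.63%, and after rescaling 22 and 10 (background 18.1%). Over the sensitive lines together, genes with a bacterial counterpart were called lower in 41 of 47 cases with a median of -0.30 (35 after rescaling), and genes particular to mitochondria in 23 of 27 with a median of -0.25 (17 after rescaling).

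By site on the ribosome, the genes counted with the peptidyl transferase region (MRPL2, MRPL3, MRPL4, MRPL16 and MRPL27) had a median of -0.41 over the sensitive lines, with 5 of 5 called lower, where 33.8% of all genes were. MRPL4 was counted there although its bacterial counterpart also reaches the exit tunnel. The central protuberance (MRPL18, MRPL38, MRPL40, MRPL46 and MRPL48) had 5 of 5 with a median of -0.27, and the decoding site and head (MRPS7, MRPS9, MRPS10, MRPS12, MRPS14 and MRPS24) 5 of 6 with a median of -0.29. The exit tunnel (MRPL22, MRPL23, MRPL24, MRPL44 and MRPL45) had 3 of 5 with a median of -0.20. After rescaling the counts called lower were 5, 3, 4 and 2 in the same order of sites (background 27.8%). These groups are small, a gene near more than 1 site was put in only 1, and no difference between them was tested. The stalk was divided, with MRPL12 at -0.52 and MRPL11 at -0.30 over the sensitive lines, both called lower, and MRPL10, the base of the stalk, at 0.01 and not called.

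MRPL10 in ABC-1 had 28.3 and 27.5 RPKM with G007-LK, against 23.9 and 25.2 RPKM with DMSO. Its G007-LK values lay above those of DMSO while most of the other genes fell there. Its log2 fold change was 0.18 (limma adjusted p = 0.0669) and 0.30 after rescaling (limma adjusted p = 0.0004), and the difference from RKO was 0.22 (limma adjusted p = 0.0258). In OVCAR-4 it was called lower (-0.15, limma adjusted p = 0.0468), but not after rescaling (-0.05). MRPL45, which tethers the mitoribosome to the inner membrane, overlapped between treatments in every line but COLO 320DM and was not called in any line. In COLO 320DM it had 37.4 and 32.6 RPKM with G007-LK, against 30.9 and 31.4 RPKM with DMSO, a log2 fold change of 0.16 (limma adjusted p = 0.31).

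MRPS18A, MRPS18B and MRPS18C are paralogs, of which MRPS18A sits in the large subunit and the others in the small subunit. In ABC-1, MRPS18B had 36.2 and 37.05 RPKM with G007-LK, against 46.7 and 51.8 RPKM with DMSO, and MRPS18C had 16.5 and 17.4 RPKM with G007-LK, against 20.6 and 22.7 RPKM with DMSO. Both were called lower, with log2 fold changes of -0.42 and -0.34 (rescaled -0.30 and -0.22, limma adjusted p = 0.00055 and 0.0105) and no overlap. MRPS18A had 52.4 and 54.2 RPKM with G007-LK, against 52.3 and 55.9 RPKM with DMSO, which overlap, and its log2 fold change was -0.02 ± 0.08 (SE). The difference between the paralogs was not tested. MRPS36 carries a ribosomal symbol but its protein belongs to the oxoglutarate dehydrogenase complex. It was called lower only in ABC-1, with 10.97 and 9.40 RPKM with G007-LK, against 14.7 and 14.9 RPKM with DMSO (rescaled log2 fold change -0.41, limma adjusted p = 0.00017), and its values overlapped between treatments in the other 4 lines.

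Across the 76 genes, log2 fold changes in different sensitive lines were related about as much as those of all genes. Spearman's rho was 0.59 between UO-31 and ABC-1 (0.66 over all genes), 0.54 between UO-31 and OVCAR-4 (0.55), 0.50 between OVCAR-4 and ABC-1 (0.52), 0.44 between COLO 320DM and UO-31 (0.43), 0.42 between COLO 320DM and ABC-1 (0.43) and 0.27 between COLO 320DM and OVCAR-4 (0.22). With RKO, rho was 0.36 for COLO 320DM (0.23 over all genes), 0.32 for ABC-1 (0.31), 0.24 for UO-31 (0.37) and 0.19 for OVCAR-4 (0.34). That of COLO 320DM with RKO was thus above that of COLO 320DM with OVCAR-4. These values run across genes, which are not independent replicates, and each line has its own libraries. The log2 fold change was only weakly related to the DMSO level of the gene, with rho between -0.25 in COLO 320DM and 0.05 in OVCAR-4. A negative rho means larger falls at higher levels, and the DMSO values enter both measures.

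With DMSO alone, the level of the 76 genes differed between lines, for 76 of 76 genes by limma's F test, where 99.5% of all genes tested were called. The median gene had 87.4 RPKM in OVCAR-4, 46.1 RPKM in ABC-1, 44.3 RPKM in COLO 320DM, 44.2 RPKM in UO-31 and 38.2 RPKM in RKO. OVCAR-4 held the highest level of 56 of the 76 genes. Its sum of RPKM was also the highest, and as a share of the summed RPKM OVCAR-4 held the highest level of 13 genes and COLO 320DM of 31. The order of the lines therefore depended on the scale.

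The genes with the highest mean DMSO level over the 5 lines were MRPL51 (246 RPKM), MRPL12 (197), MRPL33 (175) and MRPL41 (150). The genes with the lowest were MRPS25 (12.4 RPKM), MRPL22 (14.6), MRPS14 (15.4) and MRPL19 (16.1). MRPL33 had 362.7 ± 9.3 RPKM in OVCAR-4, 258.8 ± 22.7 RPKM in ABC-1, 118.4 ± 11.3 RPKM in UO-31, 99.7 ± 4.9 RPKM in COLO 320DM and 34.1 ± 0.77 RPKM in RKO (SD, n = 2 each), and the ranges of UO-31 and COLO 320DM did not overlap.

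MRPS12 had the largest lead of a single line, at 235.9 ± 3.87 RPKM in OVCAR-4 against 73.1 ± 1.29 RPKM in ABC-1, the next line (SD, n = 2 each). MRPL36, a large subunit protein with a bacterial counterpart, had 122.4 ± 4.11 RPKM in ABC-1 against 43.8 ± 0.61 RPKM in RKO, the next line, and was 1 of 5 genes highest in ABC-1. MRPL15, beside the rRNA of the large subunit, had 172 ± 2.38 RPKM in OVCAR-4 against 62.5 ± 2.42 RPKM in UO-31, which did not differ from RKO (62.4 ± 0.99 RPKM) beyond the spread. MRPL12 had 471.7 ± 6.87 RPKM in OVCAR-4 against 186.3 ± 1.32 RPKM in COLO 320DM. As a share of the summed RPKM, MRPS12 was still highest in OVCAR-4 (261.5 ppm, next 151.3 ppm in ABC-1) and MRPL36 in ABC-1 (253.4 ppm, next 105.9 ppm in RKO), whereas MRPL12 had 522.9 ppm in OVCAR-4 and 469.7 ppm in COLO 320DM.

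**Figure D4:**
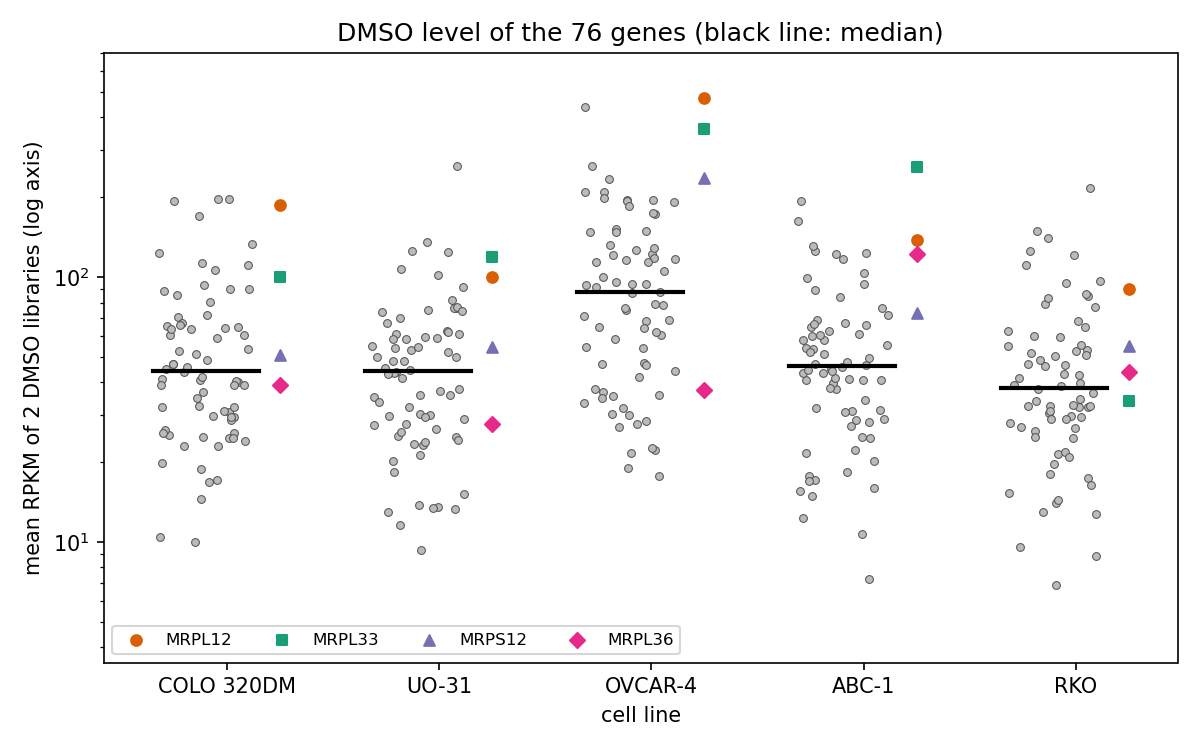
Mean RPKM of the 2 DMSO libraries (y axis, log scale) of the 76 genes in each cell line (x axis), with grey points for single genes, colored symbols for MRPL12, MRPL33, MRPS12 and MRPL36, and black lines at the median. The median is 87.4 RPKM in OVCAR-4 and between 38.2 and 46.1 RPKM in the other lines, and MRPL33 spans 34.1 to 362.7 RPKM.

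Other genes of mitochondrial translation were taken from a list of 83 genes. For ABC-1, 63 of 83 were called lower (background 41.2%), for OVCAR-4 54 (background 39%) and for COLO 320DM 30 (background 11.6%), with 0 higher in each. UO-31 had 8 called lower, or 9.64%, close to its background of 8.63%, and 0 higher. For RKO no gene of 82 tested was called in either direction. At an unadjusted limma p under 0.05, RKO had 17 lower and 2 higher (20.7% and 2.44%, against 15.6% and 5.97% of all genes). The COLO 320DM count was 7 or 3 without G007-LK replicate 1 or 2. ABC-1 gave 43 without G007-LK replicate 2 at the least, and OVCAR-4 gave 37 without DMSO replicate 2. The UO-31 count was 0 without either DMSO library, and 68 or 37 without G007-LK replicate 1 or 2. Over the sensitive lines together 64 were called lower and 1 higher (backgrounds 33.8% and 10.2%), and 58 and 3 after rescaling (backgrounds 27.8% and 22.2%). After rescaling, ABC-1 had 54 lower and 6 higher (backgrounds 34.7% and 28.6%), OVCAR-4 33 and 2 (24.4% and 23%), COLO 320DM 46 and 0 (21.8% and 17.1%), UO-31 35 and 1 (18.1% and 12.6%), and RKO 0 and 0.

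The 7 ribosomal subunits that carry other symbols (MRP63, ICT1, GADD45GIP1, DAP3, CHCHD1, AURKAIP1 and PTCD3) were all called lower over the sensitive lines together, where 33.8% of all genes were, and 7 of 7 in ABC-1 (background 41.2%). PTCD3, of the small subunit, had 18.5 and 16.01 RPKM with G007-LK in COLO 320DM, against 25.2 and 29.3 RPKM with DMSO. DAP3, a GTP-binding protein of the small subunit, had 153 and 157 RPKM with G007-LK in OVCAR-4, against 193 and 193 RPKM with DMSO. Both were lower without overlap. In COLO 320DM the log2 fold change of PTCD3 was -0.64 (limma adjusted p = 0.00108), and in OVCAR-4 that of DAP3 was -0.32 (rescaled -0.21, limma adjusted p = 0.00033).

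Of 12 mitochondrial translation factors, 10 were called lower over the sensitive lines together (background 33.8%). GFM1, an elongation factor that moves the ribosome along the mRNA, had 27.5 and 27.2 RPKM with G007-LK in ABC-1, against 47.3 and 52.5 RPKM with DMSO. TSFM, which recharges the elongation factor Tu, had 25.1 and 24.2 RPKM with G007-LK in COLO 320DM, against 39.1 and 40.5 RPKM with DMSO. Their log2 fold changes in these lines were -0.85 (rescaled -0.73, limma adjusted p = 6.3e-08) and -0.68 (limma adjusted p = 0.00013). MRRF, the ribosome recycling factor, and GUF1, a translational GTPase, were called lower in OVCAR-4 (-0.42 and -0.44).

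Of 25 assembly and rRNA modification genes, 17 were called lower and 1 higher over the sensitive lines together (backgrounds 33.8% and 10.2%). C1QBP, a matrix protein needed for mitochondrial translation, had 109 and 105.4 RPKM with G007-LK in ABC-1, against 191 and 200.0 RPKM with DMSO, and 123 and 107 RPKM with G007-LK in UO-31, against 176 and 175 RPKM with DMSO. MRM1, an rRNA methyltransferase, had 4.09 and 4.16 RPKM with G007-LK in COLO 320DM, against 7.37 and 7.73 RPKM with DMSO. Neither overlapped, and the log2 fold changes were -0.86 for C1QBP in ABC-1 (rescaled -0.74, limma adjusted p = 4.0e-08), -0.61 for C1QBP in UO-31 (rescaled -0.60, limma adjusted p = 0.00208) and -0.80 for MRM1 in COLO 320DM. RBFA, a small subunit assembly factor, was called lower in ABC-1 (-0.91, rescaled -0.81, limma adjusted p = 6.0e-06), RNMTL1, an rRNA methyltransferase, in COLO 320DM (-0.62), and FASTKD2, an RNA-binding protein, in OVCAR-4 (-0.42).

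Of 23 mitochondrial aminoacyl-tRNA synthetases and tRNA enzymes, 17 were called lower over the sensitive lines together (background 33.8%). EARS2 and FARS2 were called lower in COLO 320DM (-0.58 and -0.52), TRMU in UO-31 (-0.60, rescaled -0.58, limma adjusted p = 0.0031), WARS2 in OVCAR-4 (-0.44) and CARS2 in ABC-1 (-0.82, rescaled -0.70, limma adjusted p = 6.2e-07). Of 13 genes of mitochondrial transcription and RNA, 11 were called lower (background 33.8%). PNPT1, a polynucleotide phosphorylase, had 13.95 and 13.5 RPKM with G007-LK in ABC-1, against 30.2 and 33.95 RPKM with DMSO, a log2 fold change of -1.20 (rescaled -1.07, limma adjusted p = 2.0e-09). It was also called lower in OVCAR-4 (-0.72) and UO-31 (-0.66, rescaled -0.65, limma adjusted p = 0.0017). LRPPRC, which stabilizes mitochondrial mRNAs, was called lower in OVCAR-4 (-0.44), its partner SLIRP in UO-31 (-0.42, rescaled -0.41, limma adjusted p = 0.0338), the transcription factor TFB2M in COLO 320DM (-0.76), and the tRNA processing genes TRMT10C in COLO 320DM (-0.59) and ELAC2 in ABC-1 (-0.77, rescaled -0.65, limma adjusted p = 4.2e-07). Of the 3 insertion genes, LETM1 was called lower in COLO 320DM (-0.57), OVCAR-4 (-0.34) and ABC-1 (-0.71, rescaled -0.59). COX18 was called lower in ABC-1 (-0.45, rescaled -0.35) and OXA1L in OVCAR-4 (-0.21). The log2 fold change of OXA1L was positive, without a call, for ABC-1 (0.10), UO-31 (0.17) and COLO 320DM (0.12). After rescaling OXA1L was called higher in ABC-1 (0.22, limma adjusted p = 0.00455). TACO1, an activator of mitochondrial translation, and GADD45GIP1 were called lower in COLO 320DM (-0.35 and -0.30), and ICT1 in ABC-1 (-0.50, rescaled -0.37). The lower calls of LETM1, COX18 and ICT1 in ABC-1 held after rescaling (limma adjusted p = 1.1e-06, 0.00574 and 7.7e-05).

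Cytosolic ribosomal protein genes had smaller shares called lower. In COLO 320DM, 4 of 81 tested were called lower and 2 higher (backgrounds 11.6% and 7.7%), in UO-31 1 of 81 and 1 (8.63% and 4.79%), in OVCAR-4 14 of 82 and 4 (39% and 12.6%), in ABC-1 12 of 82 and 14 (41.2% and 16.6%), and in RKO 1 of 81 and 0 (2.75% and 1.36%). Their median log2 fold changes were between -0.02 and 0.02 in all 5 lines on the deposited values. After rescaling, 56 of the 82 were called higher in OVCAR-4 (background 23%) and 40 of 82 in ABC-1 (background 28.6%), so their direction in these lines depended on the scale, while those of the mitochondrial ribosomal proteins stayed below 0 (medians -0.05 and -0.35). When single libraries were left out, 4 to 20 were called lower in OVCAR-4 (4 without DMSO replicate 2), 5 to 20 in ABC-1 (5 with its second G007-LK library left out and 20 with its first DMSO library left out), 1 to 3 for COLO 320DM, 0 to 5 for UO-31 and 0 for RKO.

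Nuclear-encoded respiratory chain subunits differed by line. In ABC-1, 57 of 77 tested were called lower and 0 higher (backgrounds 41.2% and 16.6%), with a median log2 fold change of -0.29, and 42 and 1 after rescaling (backgrounds 34.7% and 28.6%). In COLO 320DM, 14 of 77 were called lower, or 18.2%, where 11.6% of all genes were, with a median of -0.10, and 18 after rescaling (background 21.8%). UO-31 had 8 of 76 called lower, or 10.5%, where 8.63% of all genes were, with a median of -0.10, and 11 after rescaling (background 18.1%). RKO had 0 of 77 with a median of -0.02. OVCAR-4 had 17 of 76 called lower, or 22.4%, and 16 higher, with a median of 0.01, where 39% of all genes were called lower and 12.6% higher. After rescaling it had 9 lower and 43 higher (backgrounds 24.4% and 23%), so the direction of this list in OVCAR-4 depended on the scale. The COLO 320DM count was 2 or 0 without its G007-LK library 1 or 2, the UO-31 count ran from 0 without either DMSO library to 39 without G007-LK replicate 1, and the lower count of OVCAR-4 was 11 without DMSO replicate 2. No difference between lists was tested.

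**Figure D5:**
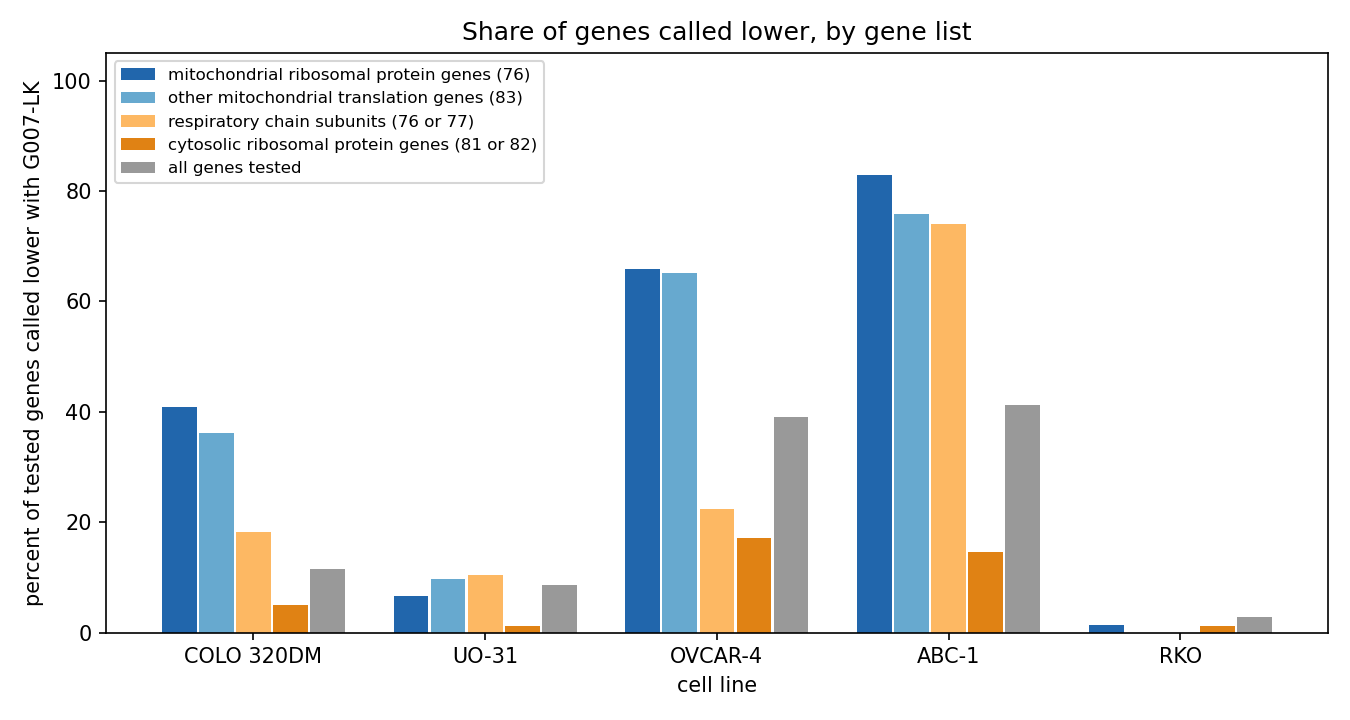
Percent of the tested genes of each list called lower with G007-LK (y axis, from 0) in each cell line (x axis), for the 76 mitochondrial ribosomal protein genes, the 83 other genes of mitochondrial translation (82 tested in RKO), respiratory chain subunits, cytosolic ribosomal protein genes and all genes tested. The first bar stands at 40.8% in COLO 320DM, 6.58% in UO-31, 65.8% in OVCAR-4, 82.9% in ABC-1 and 1.32% in RKO, against 11.6%, 8.63%, 39%, 41.2% and 2.75% for all genes.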

How the data were processed

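The deposited table gives 1 RPKM value per gene and library, which the authors derived from SOAPaligner/SOAP2 alignments against genes of hg19 (GRCh37), tolerating at most 2 mismatches. The libraries came from poly(A) RNA cut to fragments of about 200 bp, and an Illumina HiSeq 2000 was the sequencer. Versions of the aligner and gene set are not given in the sources used. The authors' own comparisons (log2 ratios and NOISeq probabilities) were not used. Missing values became 0. The table has 21610 entries. Those lacking a symbol (8, together no more than 0.00134% of any library) were dropped, and 371 repeated symbols were merged.

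A gene was tested where its mean RPKM over the libraries of a fit reached 1. Tests were two-sided, on log2(RPKM + 0.5), in limma 3.58.1 under R 4.3.3 (statmod 1.5.0), using trended robust empirical Bayes, with Benjamini-Hochberg adjustment over all genes tested and a threshold of 0.05. The fits were the 4 libraries of each line, the interaction with RKO over 8 libraries, the 16 libraries of the sensitive lines with line as a covariate (genes passing the filter in each line), and an F test over the 10 DMSO libraries. The pseudocount understates changes of low genes. With no counts, counting error could not be computed. The fits were tested on simulated data. Rescaling divided each library by the median ratio of its genes to their geometric mean. Labels call the replicates biological, and with 2 per group p-values rest on a spread shared across genes.

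Members and lists were chosen with earlier results of these data known. Named genes are, per line, the 4 largest called falls and rises without overlap between groups, genes called lower in all 4 sensitive lines, the 4 highest and 4 lowest DMSO levels, the 4 largest leads of a line, the MRPS18 paralogs, and up to 2 called genes of each mitochondrial translation group and line. MRPL10, MRPL28, MRPL45 and MRPS36 were chosen after their values were seen. Of the translation list, MARS2 was not matched. A gene of this list that the rule would name is not reported here. The respiratory chain list was matched by symbol pattern and holds a few pseudogenes and readthrough genes. The 84 cytosolic genes, likewise matched by pattern, have many processed copies, between which reads may be split. Alternatives were pseudocounts of 0.1 and 1, no filter, a mean RPKM of at least 5, rescaling, 1 fit over 20 libraries, a replicate block, the NOISeq rule (score over 0.8) computed from the RPKM, leaving out each library and, added after seeing the data, a crossed block and rescaling together with leaving out a library. Positions are from GENCODE 44 on GRCh37 and promoters from RefSeq (GRCh38.p14). Python 3.11.15, numpy 2.4.6, pandas 2.3.3 and matplotlib 3.10.9 were used.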

Additional observations from a re-analysis of the deposited data

Results flagged for a closer look

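The effect of G007-LK differed from that in RKO, by the interaction test of limma, for these genes, given as the difference of log2 fold changes, with the RKO libraries shared between comparisons. In COLO 320DM it was -0.50 for MRPS17, -0.52 for MRPL4, -0.43 for MRPL13, -0.52 for MRPS12, -0.32 for MRPL12, -0.44 for MRPL33 and -0.34 for MRPL49. In UO-31 it was -0.44 for MRPL12 and -0.52 for MRPL33. In OVCAR-4 it was -0.30 for MRPL42, -0.31 for MRPL35, -0.27 for MRPL3, -0.34 for MRPS30, -0.20 for MRPL12, -0.36 for MRPL33 and -0.19 for MRPL49. In ABC-1 it was -0.86 for MRPL4, -0.79 for MRPL50, -0.75 for MRPL12, -0.69 for MRPL39, -0.79 for MRPL33, -0.48 for MRPL3 and -0.32 for MRPL49, and 0.22 for MRPL10.

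For 4 genes, every G007-LK library lay above the DMSO libraries in a sensitive line and below them in another, and the difference between those lines was not tested. MRPL10 had a log2 fold change of 0.18 in ABC-1 and -0.15 in OVCAR-4. MRPL23 had 0.10 in OVCAR-4, against -0.13 (ABC-1), -0.20 (COLO 320DM) and -0.14 (UO-31). MRPL28, of the large subunit, had 0.11 in OVCAR-4, against -0.10 (ABC-1), -0.22 (COLO 320DM) and -0.12 (UO-31). MRPL53 had 0.15 in OVCAR-4, against -0.15 in COLO 320DM and -0.041 in ABC-1.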

How the results depend on the processing

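Of 228 alternatives over the 19 named gene and line pairs, 181 kept the call and 47 lost it. Their direction was fixed when pairs without overlap were chosen and says nothing of stability. Over the sensitive lines together, 52 to 66 of the 76 genes were called lower under the alternatives run, including leaving out a line (53 without ABC-1). Counts called lower in single lines moved more. Without the filter they were 16 for COLO 320DM, 1 for UO-31 and 0 for RKO, with 0 higher in OVCAR-4 and 1 lower in UO-31 minus RKO. With a mean RPKM of at least 5 they were 3 in RKO, and 1 was higher in OVCAR-4 minus RKO. Rescaling gave 32 lower in UO-31, 26 lower and 7 higher in OVCAR-4, 1 higher in ABC-1 and 0 lower in RKO. For differences from RKO it gave 34 lower in COLO 320DM, 19 lower in UO-31, 11 lower and 6 higher in OVCAR-4, and 2 higher in ABC-1. A single fit over 20 libraries gave 52 lower in UO-31, 27 lower and 0 higher in OVCAR-4, 1 higher in ABC-1 and 0 lower in RKO. The NOISeq rule, with no share of all genes computed, gave 17 lower in ABC-1. It gave 0 lower in COLO 320DM, UO-31, OVCAR-4 and RKO, and 0 higher in OVCAR-4. The cause of these shifts was not tested.

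Same-numbered libraries did not deviate together (r of -0.254 in COLO 320DM and ABC-1, -0.021 in UO-31, 0.005 in OVCAR-4 and 0.055 in RKO), so the numbers were not taken as pairs. With the replicate block, 10 were lower in COLO 320DM and 0 in RKO, and, as differences from RKO, 4 were lower in COLO 320DM, 1 higher in OVCAR-4 and 0 higher in ABC-1. With a crossed replicate block, chosen after seeing the data, 53 were lower and 1 higher in COLO 320DM, and 1 was higher in ABC-1.

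Leaving out 1 library gave 6 to 39 lower in COLO 320DM, 0 to 64 in UO-31, 32 to 52 in OVCAR-4, 53 to 64 in ABC-1 and 0 to 1 in RKO, and 0 to 3 higher in OVCAR-4 and 0 to 1 higher in ABC-1. For differences from RKO it gave 5 to 40 lower in COLO 320DM, 0 to 56 lower and 0 to 2 higher in UO-31, 23 to 38 lower and 0 to 2 higher in OVCAR-4, and 55 to 63 lower and 0 to 1 higher in ABC-1. With DMSO alone, 74 to 76 genes differed between lines. Rescaled as well, a choice made after seeing the data, COLO 320DM gave 31 to 55 lower and 0 to 1 higher, and UO-31 gave 4 to 68 lower and 0 to 4 higher (43 lower and 4 higher without G007-LK replicate 1). A left-out library leaves 1 in its group, which is assumed to vary like the other group. Apart from rescaling alone, the share of all genes called was not computed for the alternatives. With 2 libraries per group and no counts, the precision of single genes is limited.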
